A study of Rattus norvegicus with 10 samples.

Results

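Gpnmb macrophage nuclei were the nuclei from the injured rat heart that carried macrophage RNA together with RNA of Gpnmb, Fam20c, Tmem26 and Anpep. They were chosen by unique molecular identifier counts (UMIs, each standing for 1 captured RNA molecule). A nucleus had to hold at least 500 UMIs, at least 1 UMI of Ptprc or Csf1r, and at most 1 UMI in all of the fibroblast gene Pdgfra, the endothelial gene Flt1 and the neutrophil gene Csf3r. These nuclei are called gated here. Among them the summed UMIs of the 4 marker genes, the marker sum, had to be at least 2 and to exceed both the summed UMIs of the resident macrophage genes Cd163, Stab1, F13a1 and Lyve1 and those of the monocyte genes Adgre4, Treml4 and P2ry10. The rule took 2590 of 22037 nuclei, 833 of 10497 from BT2 and 1757 of 11540 from vehicle. They made up 2590 of the 7218 gated nuclei. In what follows these 2590 are also called members.

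The study treated rats with the small molecule BT2 or with vehicle and sampled the area at risk, the heart muscle served by the ligated coronary artery, after ischaemia and reperfusion. Nuclei came from 1 BT2 library (100 mg/kg) and 1 vehicle library at 24 h. Whole-tissue RNA came from 2 BT2 and 2 vehicle libraries at 24 h and from 2 of each at 4 h; the labels give no dose for the tissue. The titles count the hours since the artery was tied, and the series text counts them since the injury. Strain, age, sex and the number of rats per library are absent from the labels, so p-values measure only the spread between these samples. With 1 nuclear library per group no test between the groups was possible for nuclei, and intervals cover counting error only.

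Gpnmb encodes a transmembrane glycoprotein of lysosomes and the cell surface that macrophages make when they take up large amounts of lipid and debris. In mouse and human hearts, macrophages rich in Gpnmb, Spp1 and Trem2 arise from recruited monocytes after infarction and sit in the injured zone, while macrophages with Lyve1, Cd163 and Timd4 are the long-lived residents. Mitf and its relatives Tfeb, Tfec and Tfe3, transcription factors that bind E-box and M-box motifs, drive lysosomal genes and Gpnmb itself in cultured macrophages and osteoclasts. Of the other genes in the rule, Fam20c encodes a kinase of secreted proteins whose substrates include osteopontin, Anpep encodes aminopeptidase N (CD13), and Tmem26 encodes a membrane protein of uncertain function.

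The 250 bases before the annotated start are shown for Gpnmb, which leads the rule, and for Tm4sf19 and Mmp12, which marked the same nuclei without being part of the rule. Sequences and positions are those of RefSeq on GRCr8, a later build than the one used for counting, and are read 5′ to 3′ along the gene. Capitals mark matches on either strand to an M-box (CATGTG), an E-box (CACGTG), an AP-1 motif (TGANTCA) or a PU.1 core (GAGGAAG).
Gpnmb, chr4:79340878-79341127, plus strand: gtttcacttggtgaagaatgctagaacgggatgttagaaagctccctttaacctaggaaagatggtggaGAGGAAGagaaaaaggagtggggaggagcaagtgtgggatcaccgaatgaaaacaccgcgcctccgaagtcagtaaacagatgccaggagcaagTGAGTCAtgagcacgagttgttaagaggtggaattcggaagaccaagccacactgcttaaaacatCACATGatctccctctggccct
Tm4sf19, chr11:81889647-81889896, minus strand: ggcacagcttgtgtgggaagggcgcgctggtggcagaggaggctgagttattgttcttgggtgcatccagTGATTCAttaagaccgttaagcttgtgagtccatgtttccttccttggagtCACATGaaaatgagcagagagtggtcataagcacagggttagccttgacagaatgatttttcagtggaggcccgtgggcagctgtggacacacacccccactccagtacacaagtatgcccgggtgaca
Mmp12, chr8:12866402-12866651, plus strand: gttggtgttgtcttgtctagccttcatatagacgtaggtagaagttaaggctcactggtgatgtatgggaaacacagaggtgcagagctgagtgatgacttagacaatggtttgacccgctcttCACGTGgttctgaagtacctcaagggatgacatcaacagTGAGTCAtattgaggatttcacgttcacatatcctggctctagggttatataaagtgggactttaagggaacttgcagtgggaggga
In the Gpnmb window the M-box match began 22 bases before the start, the AP-1 match 87 bases and the PU.1 core 181 bases before it. The Tm4sf19 window held an M-box match at 129 bases and an AP-1 match at 180 bases, and the Mmp12 window an E-box match at 126 bases and an AP-1 match at 87 bases. Of the 44 genes searched, the 4 of the rule and the 40 marker genes described further on, 34 had a sequence. Most of the 34 windows held none of these motifs, among them those of Fam20c, Tmem26, Anpep, Spp1 and Lilrb3. The windows shown are therefore not typical of the genes searched. The AP-1 motif was in 4 of these 34 (11.8%) and in 6.34% of all 33469 rat promoter windows of this length. The M-box was in 6 (17.6%) and in 12.1% of all, the E-box in 3 (8.82%) and in 5.59%, and the PU.1 core in 5 (14.7%) and in 10.2%. A match describes these letters and is not evidence of binding.

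The values that chose the nuclei varied widely among them. The marker sum had a median of 5 UMIs in BT2 members and 6 in vehicle members, with highest values of 69 and 65. A sum of exactly 2, the lowest allowed, was held by 21.7% of BT2 members and 15.1% of vehicle members, and a sum of 10 or more by 21.0% and 30.6%. All 4 marker genes were detected together in 13.9% of BT2 members and 19.1% of vehicle members, and a single one in 17.3% and 14.8%. BT2 members held fewer UMIs in all, with a median of 1969 against 2336 in vehicle members, and fewer detected genes, with 1242 against 1423.

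Spp1, which encodes the secreted phosphoprotein osteopontin and was not in the rule, followed the marker sum. In gated nuclei just outside the threshold, with a sum of 1, Spp1 stood at 109.8 UMIs per 1000000 (CPM) in BT2 (550 nuclei) and 254 CPM in vehicle (692 nuclei). Just inside, at a sum of 2, it stood at 301 CPM in BT2 (181 nuclei) and 551 CPM in vehicle (265 nuclei). At sums of 10 or more it reached 1698 CPM in BT2 (175 nuclei) and 2222 CPM in vehicle (538 nuclei). RNA of other cell types ran the opposite way. Titin RNA (Ttn, a cardiomyocyte gene) made up 7434 CPM in BT2 and 10624 CPM in vehicle at a sum of 2, against 878 and 2123 CPM at 10 or more. Summed fibroblast marker RNA was 1212 CPM in BT2 and 649.9 CPM in vehicle at a sum of 2, and 545 and 309 CPM at 10 or more. The gated nuclei with a sum of 1 include resident-type nuclei, which the rule keeps out of the members. Summed RNA of the resident genes was 1161 CPM in BT2 and 779 CPM in vehicle there, against 109.6 and 83.2 CPM at a sum of 2. The step in Spp1 across the threshold thus also compares different types of nuclei.

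The rule also left out nuclei that met its marker condition. Among nuclei with more than 1 UMI of Pdgfra, Flt1 and Csf3r together, 642 of 2055 in BT2 (31.2%) and 1366 of 2870 in vehicle (47.6%) met it. Among nuclei with no Ptprc or Csf1r UMI, 457 of 5549 in BT2 (8.24%) and 405 of 4345 in vehicle (9.32%) met it. In all, members held 39.4% of all Gpnmb UMIs in the BT2 library and 37.5% in the vehicle library. As a gauge of free RNA, nuclei with no Ptprc or Csf1r UMI and at least 5% of their UMIs from cardiomyocyte markers met the marker condition in 25 of 528 cases in BT2 (4.73%, median 3203.5 UMIs) and in 35 of 434 in vehicle (8.06%, median 6143 UMIs). Among gated nuclei of a cluster led by cardiomyocyte genes such as Ttn (cluster 6), 10.3% in BT2 and 25.7% in vehicle were members.

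Unsupervised clusters gathered only part of the members together. The gated nuclei were grouped into 15 clusters by their 2000 most variable genes. The rule genes were not taken out beforehand, so the overlap of members with a cluster gives no independent support for the name. Cluster 0, whose leading genes included Tmem26, Fam20c, Spp1, Lama3, Tm4sf19 and Lilrb3, held 478 of the BT2 members (57.4%) and 1098 of the vehicle members (62.5%). Members made up 67.6% of the BT2 nuclei and 76.0% of the vehicle nuclei of that cluster. Cluster 1, whose leading genes Bnc2, Mfap5 and Hmcn2 are fibroblast genes, held 13.4% of BT2 members and 4.95% of vehicle members. Cluster 2, led by the mural cell genes Notch3 and Rgs5, held 8.04% and 5.98%. Cluster 5, led by C1q genes, Cd163 and Lyve1, held 1.56% and 1.71%, and cluster 3, led by P2ry10, Adgre4 and Treml4, held 4.56% and 4.33%. By these leading genes the label describes the members in cluster 0 best. Values for these alone are given beside the main ones, a check added after the data were seen.

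**Figure D1:**
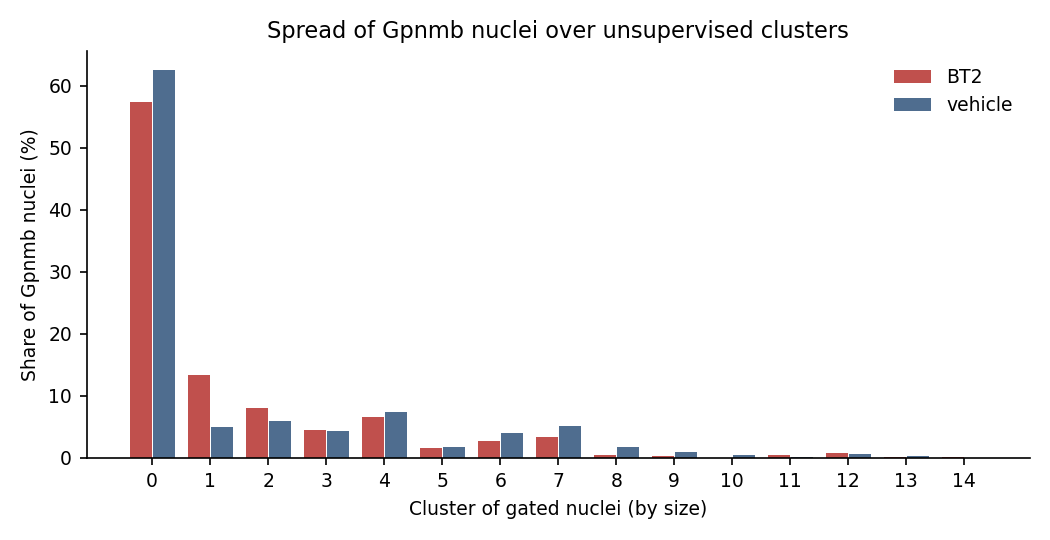
Bars give the percent of Gpnmb macrophage nuclei that fell into each of the 15 clusters of the gated nuclei, numbered by size, with BT2 (red) to the left of vehicle (blue), 1 library each and no error bars. Cluster 0 held 57.4% of BT2 members and 62.5% of vehicle members, and cluster 1 held 13.4% and 4.95%.

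Beyond the rule, the members were marked by a compact set of genes. Of 9997 genes with at least 50 UMIs in members of both libraries together, 47 (0.470%) were at least 3-fold above the other gated nuclei, those that were not members, and at least 3-fold above the nuclei outside the gate, in each library. The 40 with the largest ratios are described as marker genes. They give no independent support for the grouping, because every gene of these nuclei counts as used by the choice. Lama3, a laminin chain, stood at 127 CPM in BT2 members and 171 CPM in vehicle members, 10.7-fold and 8.96-fold above other gated nuclei. Spp1 stood at 882 CPM and 1413 CPM, 7.35-fold and 6.31-fold above them. Card14, a scaffold of NF-κB signalling, stood at 67.4 and 70.0 CPM, 14.9-fold and 8.70-fold above them.

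Several marker genes encode cell-surface and secreted proteins of myeloid cells. Lilrb3, an inhibitory receptor of leukocytes, stood at 89.4 CPM in BT2 members and 194 CPM in vehicle members. Tm4sf19, a membrane protein linked in mice to osteoclast fusion, stood at 20.5 and 35.5 CPM. Mmp12, the macrophage elastase, stood at 25.4 and 40.2 CPM, 5.34-fold and 7.21-fold above other gated nuclei. Siglec10, a receptor for sialic acids, stood at 22.0 CPM in BT2 members and 19.5 CPM in vehicle members. Cela1, an elastase-type protease first known from the pancreas, stood at 10.8 and 14.0 CPM. Also among the first 20 were the potassium channel gene Kcnh1 at 101 and 70.6 CPM, Myl10 at 15.6 and 24.4 CPM, the cytoskeletal linker Gas2l3 at 34.2 and 32.0 CPM and the RING-finger gene Lonrf3 at 29.8 and 33.5 CPM. The other 8 of the first 20 carry provisional names only, such as LOC102550137 and RGD1305807.

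**Figure D2:**
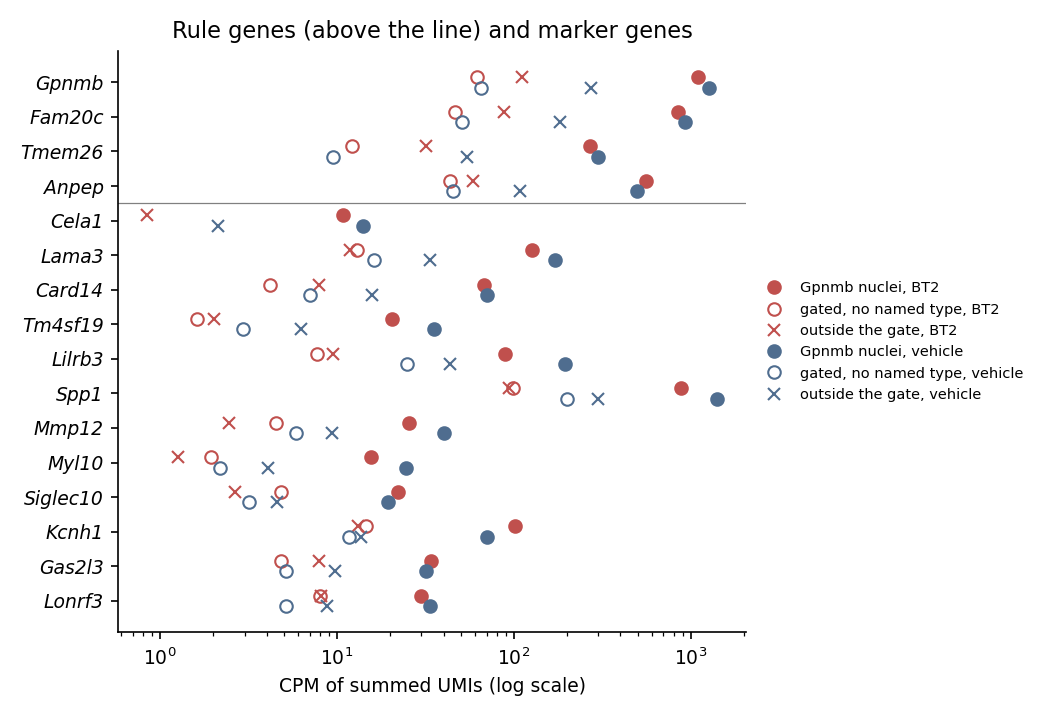
Level in CPM of summed UMIs (log axis) of the 4 rule genes, above the line, and of 12 marker genes, for members (filled points), gated nuclei of none of the 3 named types (open points) and nuclei outside the gate (crosses), with BT2 in red drawn above vehicle in blue. Spp1 stood at 882 CPM in BT2 members and 1413 CPM in vehicle members, against 94.4 and 298 CPM outside the gate, and Cela1 has no open point because its level there was 0.

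General macrophage genes set the members apart less. Csf1r, the receptor of the macrophage growth factor CSF-1, was 1.28-fold above other gated nuclei in BT2 and 1.24-fold in vehicle. Mrc1, the mannose receptor, stood at 948 CPM in BT2 members and 989.8 CPM in vehicle members, below the 2726 and 3189 CPM of nuclei taken as resident by the matching rule. Csf1r was also lower in members than in those nuclei, at 179 against 273 CPM in BT2 and 232 against 327 CPM in vehicle. The transcription factor Mitf was 2.91-fold and 2.92-fold above other gated nuclei, and Lgals3, the lectin galectin-3, 3.35-fold and 3.75-fold. Trem2, a lipid receptor that marks lipid-laden macrophages, was sparse, with 21 UMIs in BT2 members and 103 in vehicle members.

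Detection at equal depth kept this order for Spp1. After thinning every nucleus to 1000 UMIs, which kept 753 BT2 members and 1670 vehicle members and left out 80 and 87, Gpnmb was detected in 56.7% of BT2 members and 63.9% of vehicle members, against 75.0% and 82.0% before thinning. Spp1 was detected in 38.1% and 52.0% of thinned members, in 10.5% and 18.2% of resident-type nuclei and in 7.65% and 16.3% of nuclei outside the gate. The nuclei outside the gate include those that met the marker condition, so their share does not measure background alone. The members lay well above this share in both libraries. Spp1 was detected in a smaller share of nuclei in BT2 than in vehicle in each of the 3 classes. Trem2 was detected in 0.664% of thinned BT2 members and 2.04% of thinned vehicle members, against 1.75% and 2.25% of resident-type nuclei.

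Gpnmb macrophage nuclei were the more frequent type in the vehicle library. They made up 7.94% of BT2 nuclei (exact binomial 95% interval 7.43 to 8.47%) and 15.2% of vehicle nuclei (14.6 to 15.9%), a ratio of 0.521 (0.482 to 0.564). Among gated nuclei the shares were 28.8% of 2893 in BT2 and 40.6% of 4325 in vehicle. Resident-type nuclei, counted by the same rule with their own genes, made up 4.36% of BT2 nuclei and 4.98% of vehicle nuclei. Nuclei of the Treml4 monocyte type made up 0.619% and 1.59%. Cluster 0 members alone made up 4.55% of BT2 nuclei and 9.51% of vehicle nuclei, a ratio of 0.479.

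Depth differed beside these shares. The median UMI count of members was 1969 in BT2 and 2336 in vehicle. With nuclei thinned to 1000 UMIs before the rule was applied, the ratio of shares was 0.427. The part of animal, dissection or nuclear isolation in the ratio cannot be told apart from treatment with 1 library each.

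**Figure D3:**
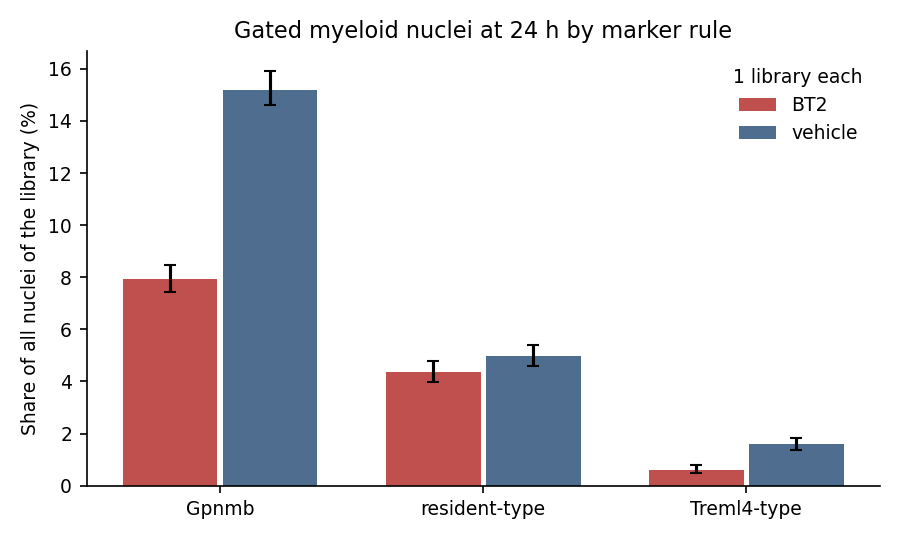
Percent of all nuclei that were Gpnmb macrophage, resident-type or Treml4-type nuclei, with BT2 to the left of vehicle and exact binomial 95% intervals for counting error. Gpnmb macrophage nuclei made up 7.94% in BT2 and 15.2% in vehicle.

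Within the members, the genes of the rule differed little between libraries. Gpnmb stood at 1096 CPM in BT2 members and 1264 CPM in vehicle members, a ratio of 0.867 (exact Poisson 95% interval 0.826 to 0.910). In cluster 0 members its ratio was 1.02 (0.967 to 1.08). Fam20c stood at 845 and 929.6 CPM, a ratio of 0.909, and Tmem26 at 271 and 297 CPM, a ratio of 0.911. Anpep was the exception, at 559 CPM in BT2 members and 498 CPM in vehicle members, a ratio of 1.12 (1.04 to 1.20) and 1.30 in cluster 0. Since the rule counts these genes, their levels are a description only.

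Across 11253 genes with at least 30 UMIs, 407 (3.62%) were more than 2-fold higher and 323 (2.87%) more than 2-fold lower in BT2 members than in vehicle members, with a median log2 ratio of -0.04. In the cluster 0 members, 267 of 9059 genes (2.95%) were more than 2-fold higher and 305 (3.37%) more than 2-fold lower. Of the 11253 genes in all members, 5106 had a ratio above 1 and 6147 a ratio below 1. These counts are the background for the gene groups that follow.

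Spp1 and most other marker genes were lower in BT2 members. The ratio of Spp1 was 0.624 (0.592 to 0.657) in all members and 0.688 (0.648 to 0.730) in cluster 0, and 0.342 in nuclei that were not members. Lilrb3 had a ratio of 0.461 (0.391 to 0.541), and 0.558 in cluster 0. Mmp12 had a ratio of 0.632 (0.456 to 0.861), and its interval in cluster 0, 0.530 to 1.08, included 1. Tm4sf19 had a ratio of 0.578 (0.402 to 0.814), Lama3 of 0.741 and Card14 of 0.964. Of the 40 marker genes 32 lay below 1, 5 of them past 2-fold lower and 0 past 2-fold higher, with a median log2 ratio of -0.34. Kcnh1 ran the other way with a ratio of 1.43 (1.20 to 1.71), and 1.62 in cluster 0.

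Genes of lipid uptake and lysosomes had mostly ratios below 1 in BT2 members, and few passed 2-fold. Of 25 genes of lysosomes and the Mitf family 22 had a ratio below 1, 0 passed 2-fold in either direction, and the median log2 ratio was -0.22. Mitf stood at 1391 CPM in BT2 members and 1822 CPM in vehicle members, a ratio of 0.763 (0.833 in cluster 0). The protease gene Ctsb stood at 771 and 808 CPM, a ratio of 0.955, and the folliculin partner Fnip2 at 860.1 and 1040.3 CPM, a ratio of 0.827. Of 20 lipid-associated macrophage genes, Trem2 passed 2-fold lower (0.485) and the receptor kinase Axl 2-fold higher (2.08, 85.5 against 41.1 CPM), with a median of -0.29. In cluster 0 neither passed. Of 20 genes of cholesterol and lipid handling 16 had a ratio below 1, with a median of -0.20, and Olr1, a receptor for oxidised lipoproteins, passed 2-fold lower (0.399, and 0.353 in cluster 0, where the median was -0.02). Abca1, which exports cholesterol, stood at 459 CPM in BT2 members and 674 CPM in vehicle members, a ratio of 0.682, and Mertk, a receptor for dying cells, at 390.5 and 593 CPM, a ratio of 0.658. In resident-type nuclei Mertk stood at 598 CPM in BT2 and 618 CPM in vehicle. Of 18 general macrophage markers all 18 had a ratio below 1 in members, with a median log2 ratio of -0.42. The list includes Ptprc and Csf1r, of which the rule requires at least 1 UMI, and Cd163, which it limits. For these genes the ratios are a description only.

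Interferon response genes were the group lowest in BT2 members among the programme lists. Of 17 such genes 8 passed 2-fold lower and 0 passed 2-fold higher, with a median log2 ratio of -0.89, and their summed level was 199.9 CPM in BT2 members and 391 CPM in vehicle members. Usp18, which removes the ubiquitin-like ISG15, had the most UMIs among them, at 40 and 272, and a ratio of 0.350 (0.245 to 0.489). The antiviral GTPase Mx1 had 9 and 94 UMIs and a ratio of 0.228 (0.101 to 0.451). In cluster 0, 4 of 8 such genes passed 2-fold lower (Mx1, Oasl, Stat2 and Usp18). Nuclei that were not members had a like ratio for Usp18, 0.360, and a summed ratio of 0.618 against 0.511 in members, so the difference was not limited to these nuclei.

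Chemokine and antigen presentation genes gave smaller and sparser groups. Of 14 chemokine genes and receptors, Ccl4, Ccl5, Ccl6, Cxcl2 and Cx3cr1 passed 2-fold lower and 0 passed 2-fold higher, with a median of -0.71. In cluster 0 Ccl3, Ccl6, Cxcl16 and Cx3cr1 did, of 12, with a median of -0.32, Cxcl2 did not (0.654), and Ccl4 and Ccl5 had under 30 UMIs there. Cx3cr1, the fractalkine receptor of monocytes, stood at 6.84 CPM in BT2 members and 32.2 CPM in vehicle members, a ratio of 0.212 (0.113 to 0.367). Cxcl2, which draws neutrophils, had 22 and 165 UMIs and a ratio of 0.317 (0.194 to 0.497). Ccl2, which draws monocytes, differed in the other direction, at 72.3 CPM in BT2 members and 52.5 CPM in vehicle members, a ratio of 1.38 (1.78 in cluster 0). Of 9 antigen presentation genes Cd74, RT1-Db1 and RT1-Ba passed 2-fold lower, with a median of -0.53. In cluster 0, where RT1-Db1 and RT1-Ba had under 30 UMIs, Cd74 did not pass (0.553) and Cd86 did (0.474), of 5 genes with 30 UMIs. Of 12 complement genes C1qb passed 2-fold lower, with 6 and 35 UMIs, and in cluster 0 0 of 9 passed.

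Several lists held members on both sides of 1. Of 11 alternative activation genes 5 had a ratio above 1, 6 below and 0 past 2-fold, with a median of -0.01, and of 12 iron and haem genes 5 above, 7 below and 0 past 2-fold, with a median of -0.14. Arg1, arginase 1, from the first of these lists, stood at 85.0 CPM in BT2 members and 66.7 CPM in vehicle members, a ratio of 1.27 (1.05 to 1.54) and 1.49 in cluster 0. Cd44, the receptor for hyaluronan and osteopontin, stood at 888 and 752 CPM, a ratio of 1.18 and 1.34 in cluster 0. Fth1, the ferritin heavy chain, from the second, stood at 147 and 115 CPM, a ratio of 1.28. Of 9 cytokine genes 3 had a ratio above 1 and 6 below, with a median of -0.52 and a summed ratio of 0.850. None of them passed 2-fold lower. Il6 passed 2-fold higher, with 36 UMIs in BT2 members and 2 in vehicle members, a ratio of 42.9 (11.0 to 367). Those UMIs lay in 0.840% of BT2 members and 0.114% of vehicle members. Il6 was singled out after its values were seen. The inhibitors of ERK signalling Spry2 and Spry4 passed 2-fold higher, with 41 and 60 UMIs in BT2 members and 40 and 37 in vehicle members. In cluster 0 neither Spry gene nor Il6 had the 30 UMIs needed, 0 genes of their lists passed 2-fold, and the median of the ERK feedback genes was -0.09, against 0.28 in all members. Of 22 cell cycle genes 14 had a ratio above 1 and 0 passed 2-fold, with a median of 0.23 and a summed ratio of 1.19 (1.12 to 1.27), and in cluster 0 Cenpe passed 2-fold higher (2.15).

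**Figure D4:**
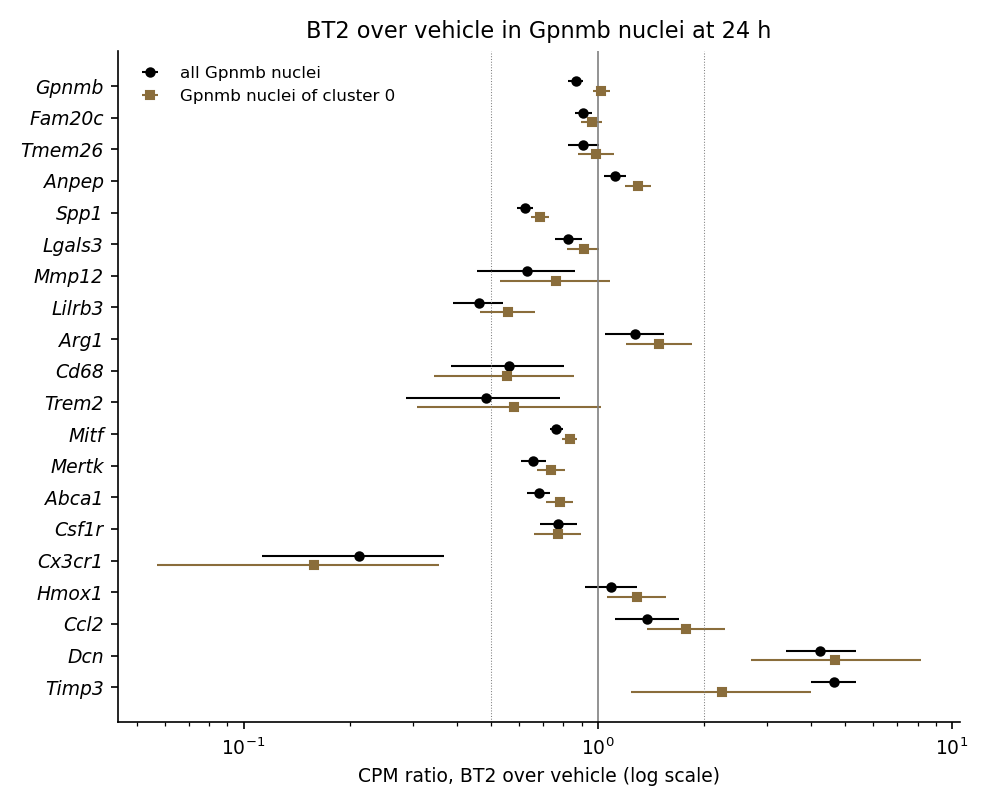
Ratio of CPM in BT2 over vehicle (log axis) for 20 named genes in all members (black points) and in members of cluster 0 (brown squares), with exact Poisson 95% intervals for counting error and dotted lines at 2-fold. Cx3cr1 lay lowest, at 0.212 in all members, and Dcn and Timp3 highest, at 4.25 and 4.63.

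RNA of other cell types also differed between the libraries in the same nuclei. Of 11 fibroblast markers 6 passed 2-fold higher in BT2 members (Pdgfra, Col3a1, Dcn, Postn, Mfap5 and Abca8a) and 0 passed lower, and their summed level was 877 CPM in BT2 members and 432 CPM in vehicle members. In resident-type nuclei the same sum was 679 CPM in BT2 and 334 CPM in vehicle. In cluster 0 members it was 446 and 274 CPM, and in members of other clusters 1255 and 629.7 CPM. All 13 endothelial markers had ratios above 1 and 0 passed 2-fold in all members, with sums of 1528 CPM in BT2 and 1002 CPM in vehicle, whereas in cluster 0 members 6 of 13 passed 2-fold higher, with sums of 810.1 and 428 CPM. Pericyte and smooth muscle markers summed to 871 and 552 CPM, with Myh11 past 2-fold higher, and in cluster 0 to 235 and 99.7 CPM, with 4 of 5 markers past 2-fold higher (Rgs5, Abcc9, Pdgfrb and Mylk). Cardiomyocyte markers summed to 7590.5 CPM in BT2 members and 8602 CPM in vehicle members. Neutrophil markers summed to 294 and 298 CPM, with S100a9 past 2-fold higher. The fibroblast, endothelial and neutrophil lists include Pdgfra, Flt1 and Csf3r in turn. The rule caps the UMIs of these genes, so their values in members are a description only.

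Several of the 12 named genes with the highest ratios are known from fibroblasts and mural cells. Dcn, the collagen-binding proteoglycan decorin, stood at 106 CPM in BT2 members and 24.8 CPM in vehicle members, a ratio of 4.25 (3.39 to 5.35) and 4.66 in cluster 0. Timp3, an inhibitor of metalloproteinases, stood at 267 and 57.7 CPM, a ratio of 4.63 (4.00 to 5.36), which was 2.24 in cluster 0 and 0.948 in nuclei that were not members. Slit3, Loxl1, Sdc2 and the cadherin gene Cdh11 had ratios of 4.20, 4.12, 4.92 and 4.05. Rai2, with 54 UMIs in BT2 members and 20 in vehicle members, had the highest ratio, 6.43 (3.79 to 11.3). The part of fibroblast RNA in the ratios of these genes was not tested.

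Among the lowest ratios, Milr1, an inhibitory receptor of mast and other myeloid cells, stood at 9.77 CPM in BT2 members and 70.8 CPM in vehicle members, a ratio of 0.138 (0.0833 to 0.217). Nuclei that were not members had a like ratio, 0.160. Of 6 mast cell markers 4 had no UMI in BT2 members and 3 had none in vehicle members. Adamts13, the protease that cleaves von Willebrand factor, had 5 UMIs in BT2 members and 132 in vehicle members, a ratio of 0.0902, and 0.0817 in other nuclei. Fam111a, which encodes a nuclear protease, had 8 and 219 UMIs, a ratio of 0.0870, and 0.0877 in other nuclei. Its tissue values are given in the closing section. Klrk1, a receptor best known from lymphocytes, had 5 and 87 UMIs and a ratio of 0.137 against 0.430 in other nuclei. Pdk4, the kinase that limits pyruvate oxidation, had a ratio of 0.195 against 0.287 in other nuclei.

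Whole-tissue RNA from separate libraries gave a replicated measure of the same genes at 24 h. In bulk tissue, fewer cells of a type and less RNA per cell cannot be told apart. Of 15216 genes tested with edgeR, 18.9% were called higher and 20.7% lower with BT2, at a Benjamini-Hochberg adjusted p under 0.05. All 4 genes of the rule fell, with a median log2 change of -1.80. Gpnmb read 237 and 294 CPM in the BT2 libraries, against 1172 and 1739 CPM in the vehicle libraries. Both BT2 values lay far below both vehicle values, a log2 change of -2.46 ± 0.24 (SE, n = 2 each; edgeR, Benjamini-Hochberg adjusted p = 6.69e-04). Fam20c read 48.8 and 67.7 CPM with BT2 and 132 and 164 CPM with vehicle, which did not overlap (-1.34 ± 0.17; edgeR, adjusted p = 0.00109). Anpep read 45.4 and 95.3 CPM with BT2, and 212 and 292 CPM with vehicle. The BT2 libraries differed 2-fold from each other but stayed below vehicle (-1.84 ± 0.33; edgeR, adjusted p = 0.00484).

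Marker genes of the nuclei were lower in tissue as well. Of the 30 tested 18 fell and 1, the melanosome transport gene Mreg, rose at 24 h, with a median log2 change of -1.27 against -0.01 over all genes. Spp1 read 420.0 and 836 CPM in BT2 tissue, against 2839 and 4761 CPM in vehicle tissue. The groups did not overlap, although each spread widely (-2.60 ± 0.39, n = 2 each; edgeR, adjusted p = 0.00247). Mmp12 read 2.98 and 8.60 CPM with BT2, and 62.6 and 79.4 CPM with vehicle. It gave the largest fall of the marker genes named here (-3.60 ± 0.44; edgeR, adjusted p = 0.00186). Lilrb3 read 5.20 and 5.38 CPM with BT2 and 18.98 and 13.8 CPM with vehicle (-1.63 ± 0.29; edgeR, adjusted p = 0.00364). Milr1 read 0.949 and 0.449 CPM with BT2, and 10.8 and 20.3 CPM with vehicle (-4.48 ± 0.75; edgeR, adjusted p = 0.00376), the same direction as in the nuclei.

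Other macrophage genes divided in tissue. Lgals3 read 138 and 228 CPM in BT2 tissue, against 572 and 564 CPM in vehicle tissue (-1.63 ± 0.25, n = 2 each; edgeR, adjusted p = 0.00253). Cd68 read 32 and 40 CPM with BT2 and 109 and 127 CPM with vehicle, and fell by 1.71 on the log2 scale (edgeR, adjusted p = 3.44e-04). Trem2 read 8.86 and 10.1 CPM with BT2 and 13.8 and 15.8 CPM with vehicle, a smaller fall of 0.65 (edgeR, adjusted p = 0.0317), whose call was lost when any single 24 h library was left out (-0.75 to -0.55). Of 18 general macrophage markers 14 fell and 1 rose, with a median of -1.19. Of the genes that defined resident-type nuclei none was called, with edgeR adjusted p of 0.424 for Cd163, 0.348 for Stab1, 0.181 for F13a1 and 0.734 for Lyve1, and the 11 resident markers gave 2 rises and 4 falls with a median of -0.30. Abca1 read 54.9 and 52.4 CPM with BT2 and 54.5 and 61.7 CPM with vehicle, and Mitf 68.1 and 58.6 CPM against 44.9 and 50.6 CPM. Neither was called (edgeR, adjusted p = 0.565 and 0.0850). Of Mitf UMIs, 23.1% in the BT2 library and 29.8% in the vehicle library lay in members, and of Abca1 UMIs 16.2% and 25.7%.

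For some genes the tissue and nuclear values are set side by side. Arg1 read 2.03 and 18.4 CPM in BT2 tissue and 43.6 and 42.0 CPM in vehicle tissue, lower in both BT2 libraries but unequal between them and not called (edgeR, adjusted p = 0.0981). Without replicate 2 of BT2 it was called (-4.39; edgeR, adjusted p = 0.00532). In members it was higher in BT2, with a ratio of 1.27. Ccl2 read 27.0 and 54.9 CPM in BT2 tissue and 269.5 and 323 CPM in vehicle tissue, and fell (-2.85 ± 0.68, n = 2 each; edgeR, adjusted p = 0.0168), while its ratio in members was 1.38. The call for Ccl2 was lost without replicate 1 of BT2 (-2.44) or either vehicle library at 24 h (-2.98 and -2.72), or without replicate 2 of vehicle at 4 h (-2.86). Members held 11.3% of Ccl2 UMIs in the BT2 library and 17.5% in the vehicle library. Igf1, a growth factor of resident macrophages and fibroblasts, rose in tissue, with 141 and 103 CPM with BT2 and 63.8 and 68.6 CPM with vehicle (0.89; edgeR, adjusted p = 0.00618), and had a ratio of 1.04 in members. Members held 4.45% of Igf1 UMIs in the BT2 library and 11.5% in the vehicle library. The lipase gene Lpl rose in tissue by 1.31, with 2247 and 1758 CPM with BT2 and 836 and 779.5 CPM with vehicle, and had a ratio of 0.702 in members, which held 6.94% and 9.36% of its UMIs. Whether tissue and nuclei differed was not tested.

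Markers of other cells changed in the same tissue. At 24 h 12 of 14 cardiomyocyte markers rose with BT2 and 0 fell, with a median of 1.04. Of 13 fibroblast markers 6 rose and 1 fell, and of 12 pericyte and smooth muscle markers 6 rose. The part of these cell types in the falls of macrophage genes was not tested.

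**Figure D5:**
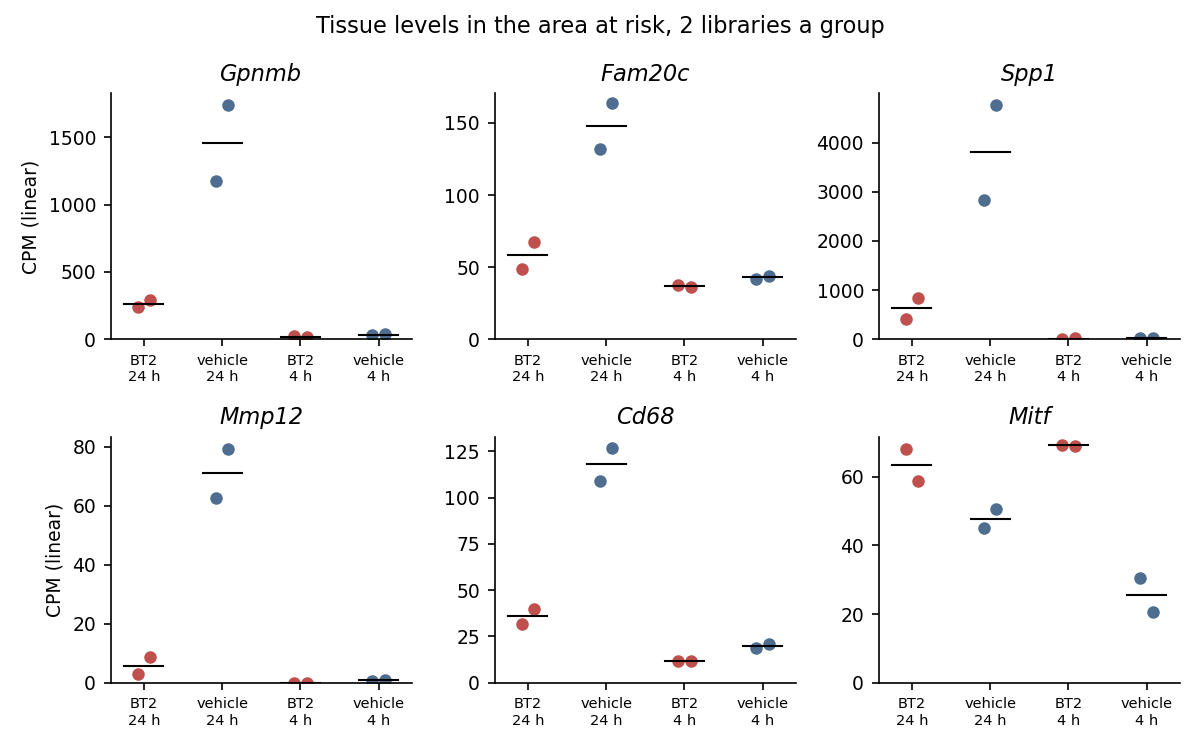
Tissue level in CPM (linear axis from 0, scaled per gene) of Gpnmb, Fam20c, Spp1, Mmp12, Cd68 and Mitf in each library, with BT2 (red) to the left of vehicle (blue) at 24 h and then at 4 h. Points are the 2 libraries of a group and the line their mean, and at 24 h Gpnmb read 237 and 294 CPM with BT2 and 1172 and 1739 CPM with vehicle.

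Most rule and marker genes were higher at the later time. They had been picked from nuclei at 24 h only, a choice that favours genes high at that time. In vehicle tissue 23.3% of genes were called higher and 23.8% lower at 24 h than at 4 h. Gpnmb read 1172 and 1739 CPM at 24 h and 30.03 and 39.96 CPM at 4 h, which did not overlap (5.37 ± 0.28, n = 2 each; edgeR, adjusted p = 6.60e-05). Spp1 read 26.3 and 19.98 CPM in vehicle tissue at 4 h and was higher by 7.37 on the log2 scale at 24 h. Mmp12 read 0.653 and 0.911 CPM there and was higher by 6.45. All 4 genes of the rule and 21 of 30 marker genes rose over this time and 2 marker genes fell, with medians of 2.45 and 2.09 for the rule and marker genes.

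At 4 h few of the marker genes were called with BT2. Of all genes 6.67% were called higher and 9.73% lower with BT2, and of the 30 marker genes 1 rose and 2 fell, with a median of -0.13. Of the 4 genes of the rule 1 fell, with a median of -0.78. General macrophage markers moved more, with 10 of 18 falling, 0 rising and a median of -0.85. Gpnmb read 22.9 and 17.2 CPM in BT2 tissue and 30.03 and 39.96 CPM in vehicle tissue, and was not called (-0.82; edgeR, adjusted p = 0.0620). Tmem26 fell, at 0.714 and 0.734 CPM with BT2 and 3.05 and 2.94 CPM with vehicle (-2.03 ± 0.27, n = 2 each; edgeR, adjusted p = 0.0106). Mitf rose at 4 h, at 69.1 and 69.0 CPM with BT2 and 30.5 and 20.7 CPM with vehicle (1.44 ± 0.18; edgeR, adjusted p = 0.00919), and so did Abca1, at 33.5 and 46.0 CPM with BT2 and 18.2 and 19.2 CPM with vehicle (1.09; edgeR, adjusted p = 0.0109). The call for Tmem26 was lost without replicate 2 of BT2 at 4 h (-2.06) and that for Abca1 without replicate 2 of vehicle at 4 h (1.14). Lgals3 (-0.98), Cd68 (-0.75), Tgfb1 (-0.62) and Il1b (-2.92) were also called lower at 4 h, and Igf1 (0.66) and Abcg1 (0.53) higher. Each of these calls was lost in some fits with 1 library left out. Members were counted at 24 h only, so it is not known from these data which cells carried Mitf at 4 h.

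The change of the BT2 effect between the times was tested as such. Of all genes, 4.72% had a difference called higher at 24 h than at 4 h and 2.43% one called lower. For Gpnmb the difference was -1.64 (edgeR, adjusted p = 0.0337), a fall with BT2 that was larger at 24 h. Card14 read 2.12 and 2.49 CPM with BT2 and 7.08 and 10.2 CPM with vehicle at 24 h, and 4.995 and 4.91 CPM with BT2 and 2.39 and 3.22 CPM with vehicle at 4 h. Its difference was -2.70 (edgeR, adjusted p = 0.0174). Of the 36 named genes tested for this, 9 were called, and each of the 9 lost its call when 1 of 3 libraries was left out: replicate 1 of BT2 at 24 h, replicate 2 of BT2 at 4 h or replicate 2 of vehicle at 24 h. Over all genes 1087 were called, against 22, 102 and 0 with these libraries left out in turn, and 3936 had an unadjusted p under 0.05 with all libraries.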

How the data were processed

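The authors deposited raw counts per gene for 8 tissue libraries and UMI counts per gene and nucleus for 2 nuclear libraries, and the nuclear files were made with Cell Ranger 8.0.1 per the file headers. Trim Galore, STAR and featureCounts and the build Rnor_6.0 are named in the submitters' processing notes. The sources used here do not give the annotation, the counting of introns or the strand setting, so values of overlapping genes and near-identical copies are uncertain. Tissue libraries held 10397310 to 24480984 counts, and 0 columns were unassigned.

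Members, gene lists and tests were chosen with earlier results of these data known. Nuclear UMIs were summed over the members of each library and divided by their total (CPM). Ratios are BT2 over vehicle with exact conditional Poisson 95% intervals, and shares have Clopper-Pearson intervals. The rule for named genes took the rule genes, the first 20 marker genes, the 12 highest and 12 lowest ratios among genes with a proper symbol and at least 50 UMIs in the higher library, up to 3 genes per list by UMIs, and 21 macrophage genes chosen by name. Genes of lists that passed 2-fold are named for some lists only and not always in full. Of the programme lists not described above, that of matrix and proteases had Mmp2, Timp1, Adam12 and Col3a1 past 2-fold higher and 0 lower, of 20 genes. The others were phagocytosis, glycolysis and hypoxia, NRF2 targets, immediate early genes and macrophage differentiation. Their medians were -0.14, -0.02, -0.09, 0.08 and -0.20. In these lists Axl and Bnip3 passed 2-fold higher and Timd4 and Cebpa 2-fold lower. Tissue values are given for the rule, marker and macrophage genes, and for Milr1, Fam111a and Adamts13 in addition. Gated nuclei were clustered with scanpy 1.11.5 (30 principal components, 15 neighbours, resolution 0.5). Scrublet marked 0 nuclei as doublets in either library and so did not work here, and no nuclei were removed. The libraries shared 37 barcodes, and 0 of these were members in both.

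Tissue counts were fitted with edgeR 4.0.16 in R 4.3.3 (filterByExpr, 15216 of 31580 genes; TMM; quasi-likelihood, 1 mean per group over all 8 libraries, 4 residual degrees of freedom), two-sided with Benjamini-Hochberg adjustment. The biological coefficient of variation was 14.3%. DESeq2 1.42.0 was an alternative. The code was tested on simulated data.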

Additional observations from a re-analysis of the deposited data

Results flagged for a closer look

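Of 36 named genes tested at both times, 9 had a BT2 effect in tissue that differed between 24 h and 4 h (edgeR, Benjamini-Hochberg adjusted p under 0.05 for the difference of log2 changes, 24 h minus 4 h). The effect was more negative at 24 h for Gpnmb (-1.64), Fam20c (-1.13), Csf1r (-1.03), Card14 (-2.70), Mitf (-1.04), Abca1 (-1.21), Cd68 (-0.97) and Fabp5 (-1.28), and more positive for Lpl (1.09). Csf1r read 136 and 128 CPM in BT2 tissue and 240.3 and 269 CPM in vehicle tissue at 24 h, which did not overlap. Fabp5, a fatty acid carrier, read 68.7 and 93.4 CPM with BT2 and 174 and 197 CPM with vehicle at 24 h. None of the 9 calls remained when replicate 1 of BT2 at 24 h was left out.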

How the results depend on the processing

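The ratio of member shares, 0.521, stayed below 1 under each alternative run. It was 0.460 among nuclei with at least 2000 UMIs, 0.480 and 0.452 with a marker sum of at least 3 and 4, 0.440 with at least 2 UMIs of Ptprc and Csf1r, 0.427 after thinning, 0.709 among gated nuclei and 0.479 in cluster 0. The cause of these shifts was not tested. Genes past 2-fold in members numbered 171 higher and 103 lower with at least 100 UMIs, where fewer genes were counted, and 267 higher in cluster 0. Among single genes in cluster 0 the ratio of Tnxa-ps1, 5.18 in all members, was 0.470, that of Il1b 1.61 against 0.699, that of Abcg1 1.20 against 0.773, and that of Top2a 0.795 against 1.23 (0.606 with Pdgfra, Flt1 and Csf3r all at 0).

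In tissue, the difference between the BT2 effects had 1819 calls without a filter on low counts, and BT2 at 4 h had 621 with the 4 h libraries alone. Leaving out 1 library at a time gave 2982 to 6522 calls for BT2 at 24 h, 8 to 18 falling marker genes, 112 to 2796 calls for BT2 at 4 h, 4629 to 7100 for time in vehicle with 15 to 21 rising marker genes, and 0 to 1443 for the difference. An arm left with 1 library was assumed to vary like the other groups. Of 28 named genes called at 24 h 16 kept their call in each of these fits, and of 9 at 4 h 1 did, Mitf. Upper quartile scaling shifted the median of all genes by 0.11 for time in vehicle, with 4307 genes higher and 3018 lower against 3545 and 3617, and gave 1298 higher and 1244 lower against 1015 and 1480 for BT2 at 4 h. Directions turned for 4 genes. The BT2 effect of Abcg1 at 24 h, near 0, moved to 0.04 with upper quartile scaling and 0.02 with the 24 h libraries alone, and ranged over -0.14 to 0.11 with 1 library left out (positive without replicate 1 of BT2 or replicate 2 of vehicle at 24 h). That of Kcnh1 ranged over -1.62 to 0.20 (positive without these same libraries), that of Fam111a over -1.28 to 3.08 (negative without the first), and the difference for Arg1 over -3.14 to 0.47 (positive without the first or without replicate 2 of BT2 at 4 h).

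Equal replicate numbers did not pair the tissue libraries (deviations correlated at -0.041 to 0.109). With the replicate block the counts were 5824 for BT2 at 24 h with 17 falling marker genes, 2248 at 4 h, 7011 for time in vehicle with 21 rising marker genes, and 729 for the difference.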

Other observations

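Fam111a, lowest in BT2 members of the genes named by ratio, read 141 and 6.89 CPM in BT2 tissue and 18.0 and 15.3 CPM in vehicle tissue at 24 h, and 333 and 1.75 CPM with BT2 and 4.46 and 1.12 CPM with vehicle at 4 h. Libraries of 1 group thus differed more than the groups did, and the gene was not called at 24 h (edgeR, Benjamini-Hochberg adjusted p = 0.477, n = 2 each). Adamts13 read 3.80 and 4.08 CPM with BT2 and 7.39 and 7.71 CPM with vehicle at 24 h, which did not overlap (-0.94 ± 0.25; edgeR, adjusted p = 0.0199), a smaller difference than in the nuclei. Its call was lost without any 1 of the 24 h libraries (-0.99 to -0.90).

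Cell cycle genes are given for both measures. In tissue at 24 h 27 of 28 (96.4%) were called lower with BT2, against 20.7% of all genes tested. Their median log2 change was -1.51, against -0.01 over all genes. In members 0 of 22 passed 2-fold, the median log2 ratio was 0.23 and the ratio of Mki67 was 1.48 (1.17 to 1.87). The proliferation gene Mki67 lay at 0.659-fold of other gated nuclei in BT2 members and 0.493-fold in vehicle members, and members held 3.62% and 6.47% of its UMIs. Whether tissue and nuclei differed was not tested.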
